A study of Mus musculus with 2 samples.

Results

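The cells described here are interneurons of the Adarb2 type from the mouse hippocampus. They were chosen by the deposited values of 8 genes: Gad1 plus Gad2 at 3 or more, Lef1 and Otx2os1 each below 2, Adarb2 at 3 or more, and Adarb2 at least as high as Lhx6, Nxph1 and Sox6 together. The rule found 188 of 15930 cells. Of these, 69 came from the wild-type library (7094 cells) and 119 from the knock-in library (8836 cells). The wild-type mice were C57Bl.6/J with no edited allele, and the knock-in mice were C57Bl.6/J homozygous for the edited allele Pigv341E, carried from the germ line and so present in every cell type. For each genotype the cells of 8 hippocampi from 4 mice were pooled after mechanical dissociation at 4 °C, and 1 library was made with the 10x Genomics droplet chemistry. There were 2 libraries in all, without a replicate, so genotype cannot be told apart from library. Age and sex are not given in the sources used here. No test between the libraries was possible, and every difference below is a description of these libraries. Intervals on shares are exact 95% Clopper-Pearson intervals and cover counting error only.

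Inhibitory interneurons of the hippocampus release GABA, which the glutamate decarboxylases encoded by Gad1 and Gad2 make from glutamate. Most arise in the ganglionic eminences of the embryo. Cells of the caudal eminence typically carry Adarb2, Prox1, Nr2f2 and Npas1, and mature into Vip, Cck basket and many neurogliaform cells. Cells of the medial eminence carry Lhx6, Sox6 and Satb1, and mature into Sst and Pvalb cells and into other neurogliaform cells. Cck basket cells are known for the cannabinoid receptor Cnr1 on their terminals, neurogliaform cells for slow inhibition and for Reln, and Vip cells for inhibiting other interneurons. Pigv encodes a mannosyltransferase that helps to build the glycosylphosphatidylinositol (GPI) anchor, which holds a set of proteins at the cell surface.

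A level below is the sum of a gene's deposited values over a set of cells, divided by the sum of all their values, times 10000. The values are depth-corrected scores and not raw counts. Where a pair of values stands without names, the first is for the wild-type library and the second for the knock-in library. A log2 ratio has 0.1 added to both levels and so understates the difference of low genes. Member cells had a median of 3949 and 4217 detected genes, and of 725 and 740 once their values had been thinned to 1000 per cell. Cell barcodes found in both libraries numbered 28, and 0 of them belonged to a member.

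The label was checked first, against genes the rule had not used. Dlx6os1, a noncoding RNA of the Dlx locus that marks forebrain GABA neurons, had a value of 2 or more in 133 of the 188 cells. The other cells were not spread evenly. A clustering of the members gave 10 clusters, and 34 cells (10 wild-type, 24 knock-in) formed a cluster without Dlx6os1 in any cell. In this cluster Erbb4, the neuregulin receptor of interneurons, reached 3 in 0 of 34 cells. Slc32a1, the vesicular GABA transporter, reached 2 in 0 of 34. The vesicular glutamate transporter Slc17a7 was above 0 in 30 cells, and the postsynaptic protein gene Nrgn was at 2 or more in 26. The markers C1ql2, C1ql3, Pdzd2, Glis3 and Sema5a of dentate granule neurons counted for it, and it is called granule neuron-like. The data go against the interneuron label there, so results are given with and without these cells, which were 18.1% of the members (12.9 to 24.3%).

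The granule neuron-like cells lay at the edge of the rule. Their median of Gad1 plus Gad2 was 3, and 26 of the 34 had exactly 3. Their Gad1 level was 2.70 per 10000 and their Gad2 level 0.69. The members with a Gad sum of exactly 3 numbered 44, of which 14 (31.8%) had Dlx6os1 above 0, against 87.5% of the 144 members above 3. Just outside, 195 cells met the rest of the rule with a Gad sum of 2, and Dlx6os1 was above 0 in 11.3% of them. Few cells lay near the Adarb2 threshold, with 6 members at 3 to 5 and 6 cells outside at 1 or 2. Near the margin over the genes of the medial eminence, 18 members had Adarb2 under 1.5 times that sum, and 13 cells were outside by as little. Dlx6os1 was above 0 in 18 of those members and 10 of those cells. A further 52 cells were kept out by Lef1 or Otx2os1 alone, and 2 of these had Dlx6os1.

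**Figure D1:**
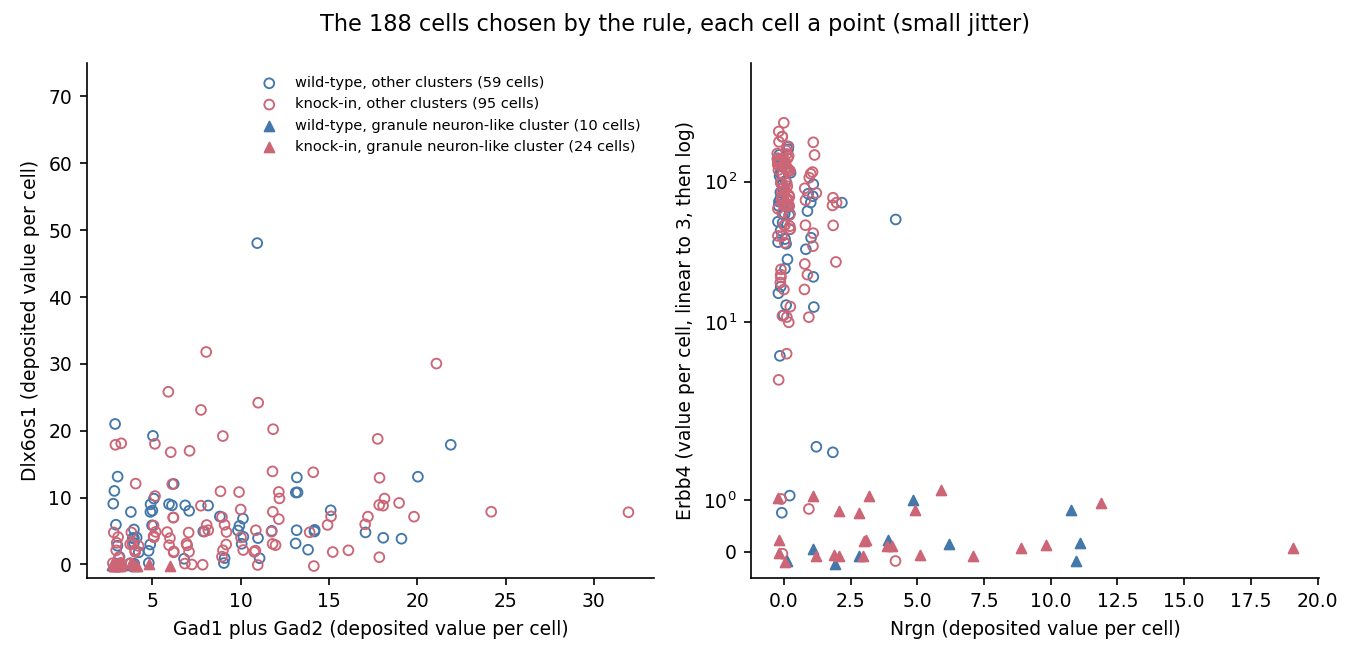
Each point is 1 of the 188 cells. The left panel sets Dlx6os1 against Gad1 plus Gad2, and the right panel sets Erbb4 (linear to 3, then a log axis) against Nrgn, all as deposited values. The 34 granule neuron-like cells (triangles) sit at a Dlx6os1 value of 0, and Erbb4 reached 3 in 0 of them.

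The share of Adarb2-type cells was 0.973% (0.758 to 1.23%) among wild-type cells, against 1.35% (1.12 to 1.61%) among knock-in cells. The difference was 0.374 percentage points. Without the granule neuron-like cluster the shares were 0.832% (59 cells) and 1.08% (95 cells). That difference was 0.243 points. A total of 51 members had at least 3 genes of another cell type's list at 2 or more, 18 of them outside the granule neuron-like cluster, and without all 51 the difference was 0.178 points. With 1 library per genotype the spread between libraries is unknown, so no difference in these shares is called. The interneurons of the Lhx6 type had Lhx6, Nxph1 and Sox6 together at 3 or more and above Adarb2. They were 1.16% (0.920 to 1.43%) and 1.87% (1.60 to 2.17%) of the libraries. Their counting intervals did not overlap, and for the same reason no difference is called. Over the cells that passed the Gad, Lef1 and Otx2os1 limits, members were 41.8% (34.2 to 49.7%) and 38.5% (33.1 to 44.2%). The counting intervals of these 2 shares of members overlapped.

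Among the 154 other members, named clusters followed the known subtypes, each from markers listed for this work, and all held cells of both libraries. Since the clusters were made from these same genes, their levels are descriptions. Neurogliaform-like cells made up 3 clusters with 26, 15 and 11 cells. The cluster of 26 had Reln, the secreted glycoprotein gene, at 44.3 per 10000 and in every cell, with the receptor kinase Kit at 11.4 and Ndnf at 4.06. The cluster of 15 had the neuropeptide gene Npy at 3.54, Kit at 12.6 and the phosphodiesterase Pde11a at 11.1, but Ndnf at 1.07. The cluster of 11 had the nitric oxide synthase Nos1 at 3.09, the matrix protein Hapln1 at 6.45 and Kit at 0.27. Lhx6 was among the 10 leading genes of this cluster, above 0 in 54.5% of its cells, and the caudal-eminence genes Nr2f2 and Npas1 were at 0 in all 11. Prox1, also a gene of the caudal eminence, was above 0 in 3 of the 11 (3 of 5 wild-type and 0 of 6 knock-in cells). Npas1 was at 0 in the cluster of 15 as well. For the cluster of 11, 7 neurogliaform and 4 Lhx6-type markers counted. Lhx6 and Nr2f2 go against a caudal-eminence label for it, and Prox1, seen in few cells of 1 library, does not settle this. The label is uncertain for these cells. Nxph1, which encodes a secreted neurexin ligand and is a gene of the rule's margin, was at 22.3, 31.6 and 44.0 in these 3 clusters. It was at 0 in the cluster of 15 cells led by Thsd7b and Brinp3, and at 0.18 in the Vip-like cluster. The margin of the rule therefore ran through the neurogliaform-like cells.

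The Vip-like cluster had 28 cells (10 wild-type, 18 knock-in). Its Vip level was 9.79 and 8.88 per 10000, and 22 of the 28 cells had a value of 2 or more. Outside this cluster Vip reached 2 in 3 members. The serotonin receptor gene Htr3a was at 1.26 in this cluster and at 0.60 or less in the others. The peptide gene Penk (1.59) and the calcium-binding protein gene Calb2 (0.63) were as high in the cluster led by Thsd7b and Brinp3, at 1.55 and 0.61. The Cck basket-like cluster of 26 cells (10 and 16) had Cnr1 at 20.1 and 17.4 per 10000, at 2 or more in all 26. Cck was at 2.29 in this cluster, with a value of 2 or more in 10 of the 26 cells. Slc17a8, the glutamate transporter of a subset of Cck cells, was at 2.33 and above 0 in 9 of the 26. The collagen genes Col25a1 and Col19a1 were at 44.5 and 34.1. Slc17a8 was at 0.04 or less in the other 9 clusters. Adarb2 itself was at 214 per 10000 in the Cck basket-like cluster, 124 in the Vip-like cluster, 71.7 to 86.7 in the neurogliaform-like clusters and 20.6 in the granule neuron-like cells.

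The remaining clusters were small, and 3 of them had no name by the rule used. The cluster of 15 cells (9 wild-type, 6 knock-in) had Brinp3 at 21.6 per 10000, Nr2f2 at 3.03 and Cnr1 at 3.90. A cluster of 12 cells had the muscarinic receptor Chrm2 at 20.8 and Ntng1 at 50.3. Another cluster of 12 cells had Meis2 at 14.5 and Pbx3 at 12.3. Only 5 of its 12 cells had Dlx6os1 above 0, so the interneuron label is doubtful there too. The last 9 cells had the homeobox genes Meis2 at 41.1 and Pbx3 at 63.0, with Igfbpl1, Sox11 and Dcx counted as markers of immature neurons. Their median of detected genes was 2230, the lowest of the clusters.

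**Figure D2:**
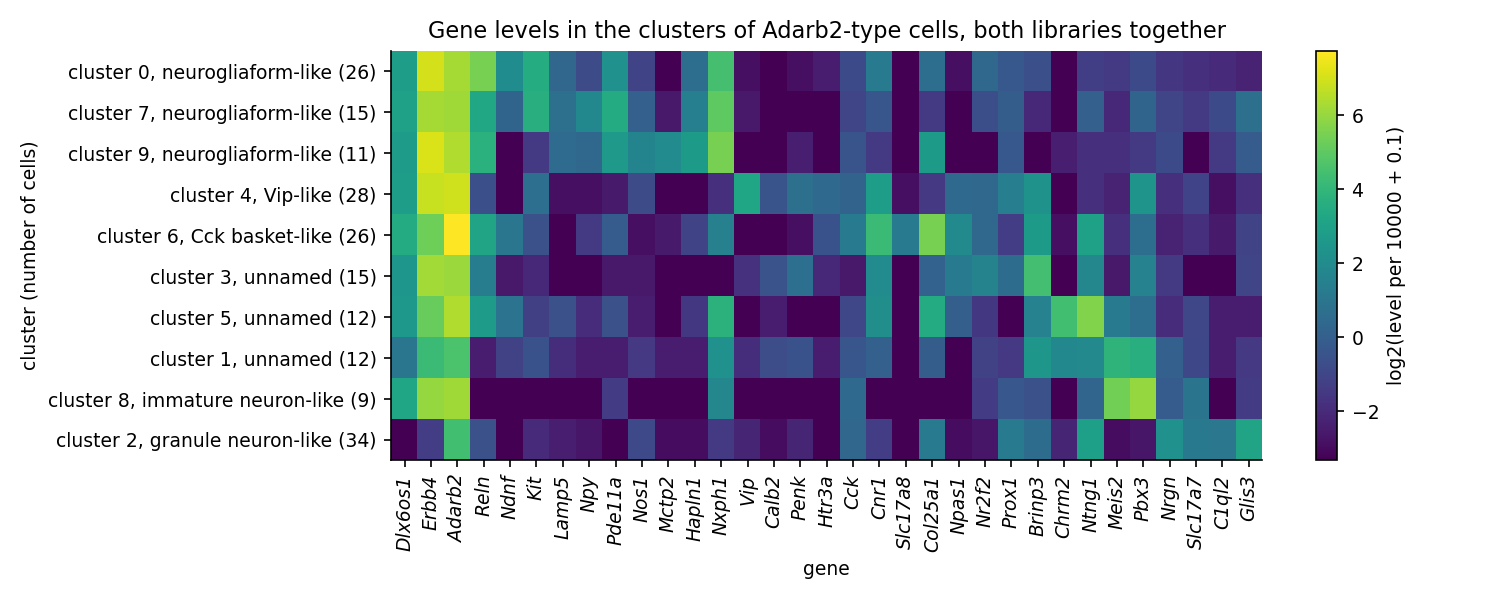
Colour gives log2 of the level per 10000 plus 0.1 for 33 genes (columns) in the 10 clusters (rows, number of cells in brackets), both libraries together. Dlx6os1 and Erbb4 are low in the granule neuron-like row, and Reln, Vip, Slc17a8, Chrm2 and Pbx3 are each brightest in a single row.

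Shares of cells at 2 or more were then set side by side for 6 genes that define subtypes. Vip reached this value in 10 wild-type cells (14.5%) and 15 knock-in cells (12.6%), together 13.3% of members (8.79 to 19.0%). Cnr1 did so in 33 (47.8%) and 56 (47.1%), and Reln in 27 (39.1%) and 48 (40.3%). Cck, the cholecystokinin gene, reached 2 in 15 (21.7%) and 22 (18.5%). Lamp5, a gene of neurogliaform cells, did so in 7 (10.1%) and 11 (9.24%), and Npy in 8 (11.6%, 5.14 to 21.6%) and 6 (5.04%, 1.87 to 10.7%). For each of the 6 genes the counting intervals of the libraries overlapped. Without the granule neuron-like cluster, Cnr1 was at 2 or more in 55.9% and 57.9%, and Reln in 45.8% and 49.5%.

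Most Vip cells also had Cnr1. Of the 25 Vip cells, 23 (92.0%) also had Cnr1 at 2 or more, while these were 25.8% of the 89 Cnr1 cells. Reln reached 2 in 2 of the 25 Vip cells, against 39.9% of all members. Lamp5 and Npy did so in 0 of the 25, but also in only 9.57% and 7.45% of all members, so little can be read from these counts of 0. Of the 18 Lamp5 cells, 13 (72.2%) had Reln, which was 17.3% of the 75 Reln cells. Cells with none of the 6 genes at 2 or more numbered 43, and 23 of these were granule neuron-like.

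The same shares were taken in Lhx6-type cells and in the cells of neither class. Vip was at 2 or more in 0 of 247 Lhx6-type cells, an exact interval up to 1.48%, and in 0.503% of the 15495 cells of neither class. Cnr1 was at 2 or more in 14.2% of Lhx6-type cells (10.1 to 19.2%) and 6.73% of the others. Reln, by contrast, was at 2 or more in 42.9% of Lhx6-type cells (36.7 to 49.3%), an interval that overlapped the members' 39.9% (32.8 to 47.3%). Lamp5 (9.72% and 9.57%) and Npy (10.5% and 7.45%) also had overlapping intervals between the Lhx6-type cells and the members. In the cells of neither class these genes were rarer, with Reln at 2 or more in 3.90%, Lamp5 in 0.975% and Npy in 0.516%. Cck was at 2 or more in 19.7% of members (14.3 to 26.1%), 9.72% of Lhx6-type cells (6.33 to 14.1%), 23.4% of the cells of neither class and 26.5% of the granule neuron-like cells. The median detected genes of Lhx6-type cells were 4214 and 4463, somewhat above those of the members.

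**Figure D3:**
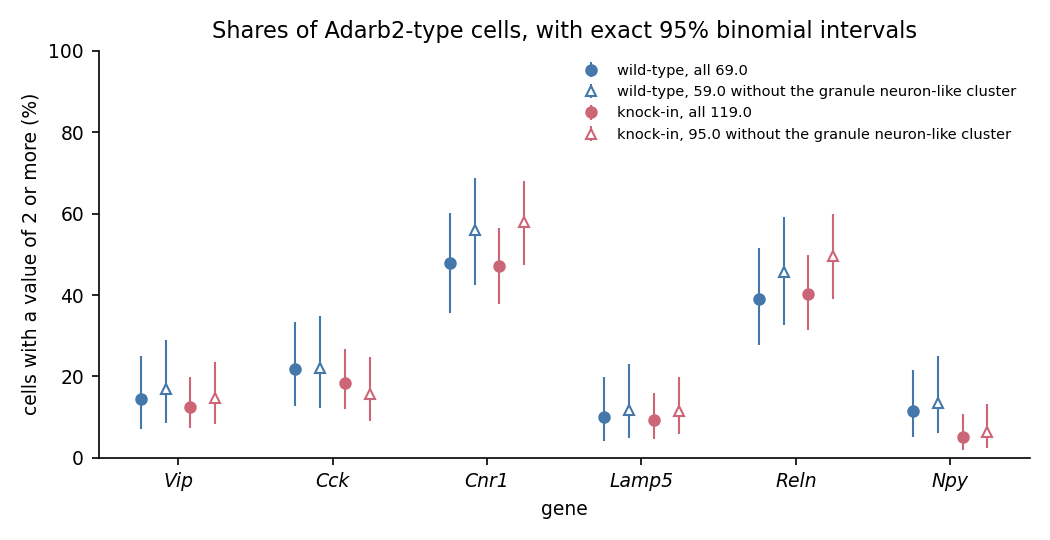
Points give the percentage of cells with a value of 2 or more for 6 genes (blue, wild-type; red, knock-in; circles, all members; triangles, without the granule neuron-like cluster), and bars are exact 95% binomial intervals. The bars of the libraries overlap for every gene, and the triangles lie above the circles for every gene except Cck in the knock-in library.

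The upstream sequences of the peptide genes are shown because Vip and Sst were the peptide genes that differed most between the interneuron classes. Each is the 120 bases before the RefSeq start of transcription on GRCm38.p6, read along the gene's strand. Vip lies at chr10:5639098-5639217 (plus strand), Cck at chr9:121495695-121495814 (minus strand) and Sst at chr16:23890845-23890964 (minus strand). The GENCODE annotation starts the Sst gene further upstream, at 23890958, so most of the Sst window lies inside the gene as placed there. Capitals mark TGACG, the core of the cyclic AMP response element, on either strand.
Vip: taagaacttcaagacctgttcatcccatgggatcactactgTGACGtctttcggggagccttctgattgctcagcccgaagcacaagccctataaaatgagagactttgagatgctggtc
Cck: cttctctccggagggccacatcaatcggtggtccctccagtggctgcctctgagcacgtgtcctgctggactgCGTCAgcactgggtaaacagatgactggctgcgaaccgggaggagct
Sst: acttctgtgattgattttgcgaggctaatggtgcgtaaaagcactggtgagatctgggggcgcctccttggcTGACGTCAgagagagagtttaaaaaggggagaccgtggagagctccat
The match begins 79 bases upstream in Vip, 47 in Cck and 48 in Sst, where matches on both strands overlap and spell the whole palindrome TGACGTCA. TGACG is found on either strand in 11.7% of 32851 such windows, and TGACGTCA in 1.24%. These letters are not in the same window of Npy, Reln, Cnr1 or Adarb2. A match is a description of the sequence and not of binding.

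Adarb2-type and Lhx6-type cells were compared within each library, so that each library gave its own ratio. A gene was past the size rule when the log2 ratio was at least 1 in size in both libraries and in the same direction. A gene was tested when, in each library, at least 1 of the classes had it at a level of 1 per 10000 and above 0 in 10% of cells. Of 1997 genes tested, 55 were higher in Adarb2-type cells (2.75%) and 57 were lower (2.85%), and 0 were past 1 in opposite directions. The median ratio over all tested genes was 0.06 and 0.04. The genes of the rule (Adarb2 at 102 and 83.1 per 10000 in members, Nxph1 at 8.69 and 10.9) were not counted, since they chose the cells.

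Higher genes were led by Vip (chromosome 10, 5639218 to 5647617, plus strand), at 1.43 and 1.40 per 10000 in members against 0.01 and 0.03 in Lhx6-type cells. Cnr1 (chromosome 4, 33924593 to 33948831, plus strand) was at 5.12 and 4.65 against 0.55 and 0.57, ratios of 3.01 and 2.82. Cadps2, which primes dense-core vesicles for release, had ratios of 3.25 and 2.43. Ntng1, a GPI-anchored netrin that organises synapses, was at 7.73 and 5.78 against 0.33 and 1.18. These 4 genes were past the rule with and without the granule neuron-like cluster, and so were the G-protein regulator Rgs12 (ratios of 3.03 and 2.02), the sorting receptor Sorcs3 (1.76 and 2.30), the homeobox gene Pbx3 (1.82 and 1.94) and the cyclic AMP phosphodiesterase Pde7b (1.64 and 2.01). Pbx3 rested on few cells, with 83.1% and 58.6% of its sum in members in 5 cells, and a level of 63.0 per 10000 in the 9 immature neuron-like cells against 2.35 in the other members.

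Other higher genes rested on the granule neuron-like cells. Glis3, a zinc-finger gene of granule neurons, had ratios of 2.00 and 1.91 over all members, and 0.05 and -0.08 without that cluster. Ptk2b, the kinase Pyk2, went from 1.85 and 1.58 to 0.73 and 0.16, and Baiap2, a scaffold of dendritic spines, from 2.48 and 1.52 to 1.21 and 0.30. Prox1 is a transcription factor of both caudal-eminence interneurons and dentate granule neurons. It kept ratios of 2.07 and 1.66 without the cluster, but its levels of 1.04 and 0.93 no longer met the minimum in both libraries. Without the cluster, 42 genes were higher (2.13% of 1970) and 58 lower (2.94%), and of the 55 higher genes 27 were among the 42. Among the genes newly past the rule were Dlx6os1 (1.07 and 1.12), Nr2f2 (1.18 and 1.37), Npas1 (1.35 and 1.63) and Ndnf (1.37 and 1.80), named here after their values were seen. Each of them was at 2 or more in 0 of the 34 cells left out, so leaving these cells out raises the ratios by construction. The other genes newly past the rule are not named.

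Lower genes were less dependent on the granule neuron-like cells, with 44 of 57 also past the rule without them. Sst (chromosome 16, 23889573 to 23890958, minus strand), the somatostatin gene, was at 0.06 and 0.03 per 10000 in members and 2.62 and 1.95 in Lhx6-type cells, ratios of -4.09 and -3.93. Satb1, a chromatin organiser of medial-eminence cells, had ratios of -3.01 and -2.90. Lypd6b, a GPI-anchored modulator of nicotinic receptors, was at 0.06 and 0.08 against 1.94 and 1.20. The calcium channel subunit gene Cacna2d2 was at 0.27 and 0.24 against 2.03 and 2.27. The receptor-type phosphatase Ptprt was at 3.53 and 3.38 against 14.6 and 12.7. Kctd8, an auxiliary subunit of GABA-B receptors, was at 0.92 and 1.02 against 5.69 and 3.76. Il1rapl2, Nek7, Adgrl2, Iqcj, Slit2 and Gm32647 were also among the 12 lower genes of largest ratio, between -2.67 and -1.93.

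**Figure D4:**
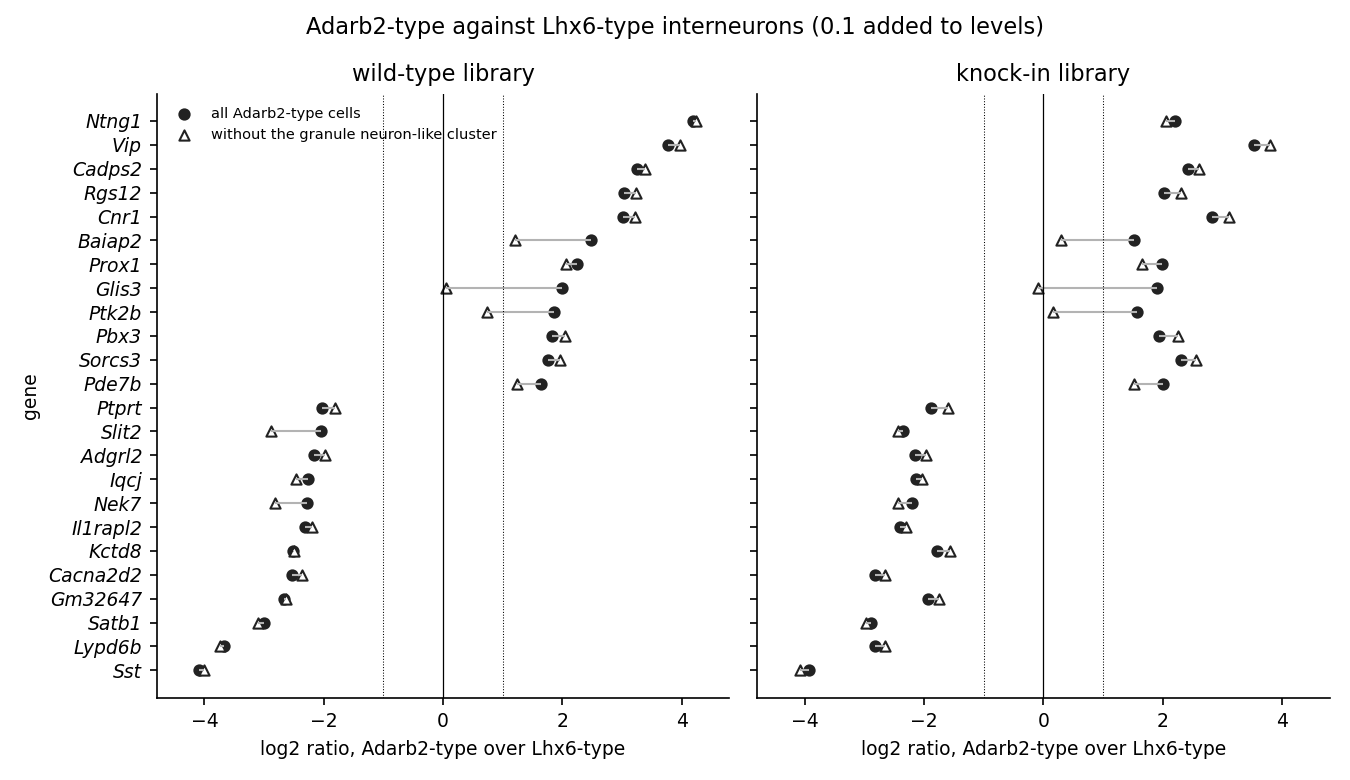
Log2 ratios of Adarb2-type over Lhx6-type cells for the 12 higher and 12 lower genes of largest ratio, in the wild-type (left) and knock-in (right) library, with 0.1 added to levels. Circles use all members, triangles leave out the granule neuron-like cluster, and dotted lines mark the size rule. Glis3, Ptk2b and Baiap2 move towards 0 and Vip, Cnr1 and Sst do not.

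The gene lists of interneuron biology gave the counts that follow, to be read against the 2.75% higher and 2.85% lower over all tested genes. Of the 10 caudal-eminence genes, 7 were tested between the classes beside the rule's own Adarb2, all 7 had ratios above 0 in both libraries, and Prox1 and Zbtb16 (1.38 and 1.56) were past the rule. The median of the list was 1.00 and 1.32, against 0.06 and 0.04 over all genes. Among genes of GABA synthesis and transport, 4 were tested and 0 were past the rule. Slc32a1 was at 0.95 and 0.71 per 10000 in members, and 1.10 and 1.24 in Lhx6-type cells. Of 7 endocannabinoid genes tested, Cnr1 alone was past the rule, while the lipases Dagla (0.06 and 0.15) and Mgll (0.09 and 0.12), which make and degrade its ligand, had ratios near 0. Of 8 serotonin and acetylcholine receptor genes, 0 were past it.

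Receptor and channel genes are given next. Of 11 AMPA, kainate and delta receptor genes, Grik3 was past the rule (-1.53 and -1.07), with a median of 0.11 and 0.03. Of 10 NMDA and metabotropic receptor genes, Grin3a was past it (-1.49 and -1.10), and both lost this without the granule neuron-like cluster, where Gria1 (-1.83 and -1.41) and Gria3 (-1.51 and -1.20) were past it. Of 12 GABA receptor genes 0 were past it. Of 31 voltage-gated channel genes, the potassium channel genes Kcnq5 (ratios of 1.48 and 1.71) and Kcnt2 (4.23 and 4.03 against 1.51 and 1.61) were higher with and without the cluster. Kcnip4 was past the rule only with it, and the calcium channel subunit gene Cacna2d2 was lower with and without it. Of 18 genes of synaptic adhesion, Cntnap4 was lower (-1.78 and -1.60), and Erbb4 was at 61.3 and 69.7 in members against 62.6 and 68.0. Of 20 genes of presynaptic release, Rab3b was lower (-2.50 and -1.38) and the complexin gene Cplx2 was higher, the latter not without the cluster.

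Proteins held by the GPI anchor included 25 tested genes, of which Ntng1 was higher and 5 were lower, against 2.75% and 2.85% over all genes. Ntng1 was by far highest in the small cluster with Chrm2, as given above. The lower genes were Lypd6b, the cadherin Cdh13 (1.74 and 3.26 against 11.4 and 11.1 per 10000), the glypicans Gpc5 and Gpc6, and the ephrin Efna5 (-1.42 and -1.49). The medians of this list were -0.04 and -0.24, against 0.06 and 0.04 over all genes. Of 11 Eph receptor, ephrin and Abl genes, Efna5 was lower and Epha4 was higher (1.29 and 1.37), and Epha4 had 0.78 and 0.08 without the cluster. Of 5 genes of GPI anchor synthesis tested, 0 were past the rule.

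The edited gene Pigv lies on the minus strand of chromosome 4, from 133660387 to 133672647. Members had it at 0.14 and 0.09 per 10000. It was above 0 in 11.6% and 9.24% of the cells. Its ratio was -0.28. At levels this low the 0.1 added to both draws the ratio towards 0, and Pigv was below the level asked of tested genes. The ratio was therefore not set against theirs, and nothing is read from it. The allele changes the protein, and its presence could not be read from this level.

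Between the libraries, a gene was tested when at least 1 library had it at a level of 1 per 10000 and above 0 in 10% of member cells, and was past the size rule at a log2 ratio of at least 1 in size. Of 2115 genes tested, 9 were higher (0.426%) and 5 lower (0.236%) in knock-in members, and the median ratio over all genes was -0.06. Without the granule neuron-like cluster 13 were higher (0.615%) and 6 lower (0.284%), and 13 of the 14 genes were among them. The exception was Ptbp3, an RNA-binding protein gene, at 0.39 and 0.90 per 10000 without the cluster. Of the 14 genes, Abl1, Hdc, Gm14216, Rab40b and Meis2 were past the rule in each of the 9 other settings run.

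Hdc, the histidine decarboxylase gene, was at 0.11 and 6.15 per 10000 in members, and above 0 in 10.1% and 98.3% of the cells. Gm14216, a noncoding RNA gene, was at 0.11 and 5.57. Their ratios were 4.93 and 4.79. The highest value of both in a wild-type member was 1, the smallest value above 0 that the table holds. Abl1, the tyrosine kinase gene of the study's title, was at 6.31 and 0.55, above 0 in 97.1% and 37.0% of the cells, a ratio of -3.30. Sec22b, a vesicle SNARE gene, was at 7.16 and 3.22. Rab40b, a small GTPase gene, was at 0.65 and 2.11. These genes did not set the members apart. In Lhx6-type cells the ratios were 5.32 for Hdc, 5.71 for Gm14216, -3.05 for Abl1, -1.05 for Sec22b and 1.56 for Rab40b. In the cells of neither class they were 4.08, 4.10, -2.69, -1.12 and 1.05, all from the same pair of libraries.

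Some of the other genes differed in size between the cell classes, and that difference was not tested. Bmper, a secreted regulator of bone morphogenetic proteins, was at 1.71 and 0.70 per 10000 in members (-1.18), at 0.34 and 0.22 in Lhx6-type cells (-0.46), and at 0.24 and 0.26 in the others. Serpini1, which encodes neuroserpin, was at 0.59 and 1.32 in members (1.05), and at 2.02 and 1.74 in Lhx6-type cells (-0.20). Adamtsl1 was at 1.25 and 0.52 in members (-1.13), with 65.1% of its wild-type sum in 5 cells. Tshz2, a zinc-finger gene, was at 1.17 and 0.30 in members (-1.68) and 1.80 and 0.28 in Lhx6-type cells (-2.32), against -0.44 in the others. Cyp4x1, Gm17660 and Gm49450 were also higher in knock-in members, at ratios of 1.81, 1.36 and 1.10. Of all 14 genes past the rule, 11 were past 1 in size with the same sign in Lhx6-type cells. In the cells of neither class 7 were. No difference between the cell classes is claimed for the genes of this paragraph. For Gm49450, 1 cell held 58 of the knock-in sum of 128. Its ratio was 0.36 without members with markers of another type and 0.48 with Adarb2 at 3 times the genes of the margin, and it was past 1 in 5 of 9 other settings.

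Meis2 was past the rule through few cells. Its level was 1.49 and 3.49 per 10000, a ratio of 1.18, but it was above 0 in 21.7% and 19.3% of the cells. The 5 highest cells held 86.9% of the wild-type sum and 62.6% of the knock-in sum. The clusters with most Meis2 had 3 wild-type and 6 knock-in cells, and 3 and 9. The Meis2 ratio was 1.15 in Lhx6-type cells and 0.46 in the others.

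**Figure D5:**
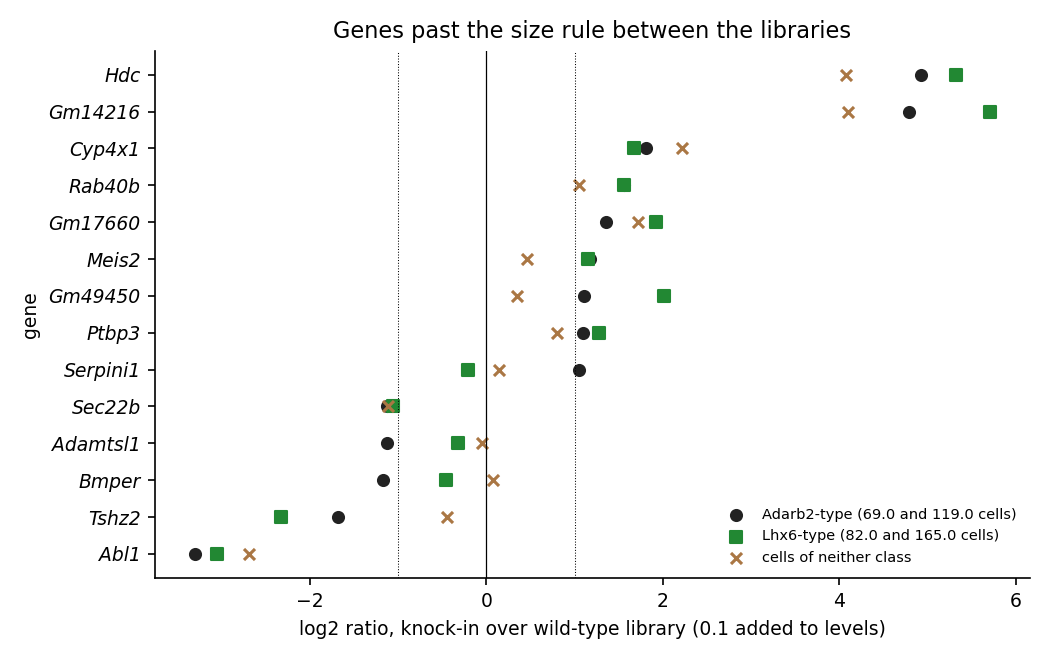
Log2 ratios of the knock-in over the wild-type library (0.1 added to levels) for the 14 genes past the size rule, in Adarb2-type cells (circles), Lhx6-type cells (squares) and cells of neither class (crosses), and dotted lines mark a ratio of 1 in size. Hdc, Gm14216, Abl1, Rab40b and Sec22b are among the genes past 1 in all 3 sets, while Serpini1, Bmper and Adamtsl1 lie past 1 in Adarb2-type cells. Of the 14 genes, 11 lie past 1 with the same sign in Lhx6-type cells and 7 in cells of neither class.

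Of the gene lists of interneuron function named next, Abl1 was the only gene past the rule between the libraries. Over all 2115 tested genes the shares were 0.426% higher and 0.236% lower. At such shares a count of 0 is likely for lists this short, and nothing is read from it. The lists hold genes at 0.5 per 10000 or more, and those below 1 in both libraries could not be past the rule. Of 6 genes of GABA synthesis and transport at 0.5 per 10000 or more, 0 were past the size rule, with ratios from -0.37 (Slc32a1) to 0.07 (Gad2). The same was true of 8 caudal-eminence genes (median -0.12), 7 endocannabinoid genes (median -0.05), 11 AMPA, kainate and delta receptor genes (0.04), 11 GABA receptor genes (0.01), 28 voltage-gated channel genes (-0.07) and 17 presynaptic genes (0.04). Slc32a1 was too low to be tested. Gad1 and Gad2 chose the cells, as did Adarb2 among the caudal-eminence genes, so nothing is read from their ratios. Of 23 genes of GPI-anchored proteins, 0 were past the size rule, between -0.69 (Gpc5) and 0.92 (Gpc4), with a median of -0.03. Of 5 genes of GPI anchor synthesis at 0.5 per 10000 or more, 0 were past the size rule, with Pigk at 2.51 and 3.29 and Pigu at 0.47 and 0.73. Pigu was too low to be tested. Abl2, the close relative of Abl1, was at 1.53 and 1.52. The Eph receptors Epha6 (9.01 and 9.97) and Epha5 (4.73 and 5.47) had ratios of 0.14 and 0.20.

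Transcripts of other cell types were present in the members at low levels. The 7 oligodendrocyte markers summed to 2.10 and 3.49 per 10000 in members (1.60 and 3.39 without the granule neuron-like cluster), against 30.8 and 26.2 in the cells of neither class. The choroid plexus gene Ttr was at 0.90 and 1.54, the 6 microglial markers summed to 0.63 and 0.45, and each of these 6 markers was above 0 in at least 1 library. The 7 dentate granule neuron markers summed to 10.4 and 11.6, and to 6.34 and 6.09 without the granule neuron-like cluster. Their part in the differences between libraries was not tested.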

How the data were processed

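Single-cell transcripts were measured in 2 pooled hippocampal libraries, 1 per genotype. The authors deposited a table of 30223 genes by 15930 cells of whole-number scores, taken here as depth-corrected values from the form of the table's name and from totals per cell between 4846 and 14501. The sequencing depth per cell is unknown, and no count model was used. Seurat 3.0.0 and the build GRCm38 are named in the submitters' processing notes, and the aligner and cell filters are not given in the sources used here. The members and the gene lists were chosen with earlier results of these data known. Members were clustered with scanpy 1.11.5 (1500 variable genes, 15 principal components, 10 neighbours, Leiden resolution 1) under Python 3.11.15.

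The naming of clusters rests on a rule that was written with the clusters in view and had 3 versions. The first version counted markers above 0 in 25% of cells and at 1.5 times the other members, with at least 3 for a name, and it named 2 of the clusters left unnamed here after glia and 1 as Lhx6-type. The second also asked for the level of the cells outside both classes, for a marker among the 10 leading genes, and for no close rival list, and left the granule neuron-like cluster unnamed because excitatory and granule neuron lists rivalled each other. The third, used here, counts these lists as 1 lineage. Leaving this cluster out was chosen after its genes were seen.

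Doublets were kept. Scrublet (expected doublet rate 6%) marked 61 and 209 cells of the wild-type and knock-in libraries, of which 4 were members. Named genes are those of the rule, Pigv and Abl1, list members at 0.5 per 10000 or more, up to 10 higher and 10 lower between the libraries and up to 12 each way between the classes by the smaller ratio of the libraries. The 7 list members without a row in the table (Crispld2, Nlgn3, Pigy, Dpm1, Gpc2, mt-Nd4 and mt-Co3) are not analysed here. Gene positions are those of the GENCODE annotation of GRCm38, and promoter sequences those of RefSeq on GRCm38.p6. The level and size rule was tested on simulated data with known changes. Alternatives covered the thresholds and margin of the rule, doublets, cells with markers of other types, equal weight per cell, values of 1, the added constant, the minimum level and thinning. Results for some genes are not reported here.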

Additional observations from a re-analysis of the deposited data

How the results depend on the processing

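No paired analysis was possible because each genotype is 1 library, so that the shared replicate number pairs nothing and no test was made. The count of genes between the libraries, 14, was 30 with Gad and Adarb2 thresholds of 5, 31 with values of 1 set to 0, 8 with 0.5 added to levels and 137 without a minimum level, where the median ratio over all tested genes was 0.07 in place of -0.06. The count between the classes, 112, was 69 with 0.5 added and 232 without a minimum level. Without the 51 members that carried markers of another type, the class ratio was -0.088 for Baiap2, -0.73 (wild-type) and -0.97 (knock-in) for Glis3 and -0.062 for Ptk2b, the first and last in the knock-in library. Without the granule neuron-like cluster, Glis3 was at -0.085 in the knock-in library. These alternatives take out cells with granule neuron genes by construction.

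Cnr1 cells of the knock-in library were 57.8% without members with markers of another type and 57.9% without the granule neuron-like cluster. Reln cells were 54.8% (wild-type) and 57.1% (knock-in) at thresholds of 5, and 51.8% (knock-in) without members with markers of another type. Lamp5 cells of the knock-in library were 4.30% with Adarb2 at 3 times the genes of the margin. After thinning to 1000, the shares above 0 were 17.4% (wild-type) and 29.4% (knock-in) for Cnr1, 26.1% for Reln (wild-type), 9.24% for Cck (knock-in) and 4.20% for Lamp5 (knock-in). Thinned shares are near the level of a single value, and no order was read from them. The cause of the other moves was not tested. The clusters depended on the settings. At resolution 1.5 there were 14 clusters, and the largest piece held 18 of the 34 granule neuron-like, 15 of the 28 Vip-like, 13 of the 26 Cck basket-like and 17 of the 26 Reln-rich neurogliaform-like cells. At resolution 0.6 the neurogliaform-like clusters of 26 and 15 cells merged. The cluster of 12 led by Zfhx3 and the immature neuron-like cluster merged there, and at 20 principal components 10 of those 12 joined it, while 33 of the 34 granule neuron-like cells stayed together.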

Other observations

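The immediate early genes, which neurons switch on with activity, were low in the members: 0 of 16 reached 0.5 per 10000 in either library, and they summed to 0.89 (wild-type) and 1.57 (knock-in). The 6 mitochondrially encoded genes at 0.5 per 10000 or more had ratios from -0.29 (mt-Nd1, 3.81 and 3.10 per 10000) to 0.48 (mt-Co1, 0.56 and 0.81) between the libraries. The gene mt-Co2 was at 0 in the 69 wild-type members and at 0.36 per 10000, in 30.3% of cells, in knock-in members. It was at 0 and 0.26 in Lhx6-type cells, and at 0.01 and 0.50 in cells of neither class.

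Pbx3 was at 2.84 per 10000 in members of the wild-type library and 5.74 in those of the knock-in library, just under the size rule at 0.99. Calb2 was at 2 or more in 1 of 69 wild-type and 8 of 119 knock-in cells, and the intervals, 0.04 to 7.81% and 2.95 to 12.8%, overlapped.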
